A study of Rattus norvegicus with 13 samples.

Results

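In rat thyroid, 10 genes that serve the uptake and digestion of thyroglobulin were examined, out of 36174 gene names on the array. They were chosen by name, with every probe kept, which gave 11 probes of 45598: 1 probe each for Lrp2, Asgr1, Ctsb, Ctsd, Ctsh, Ctsk, Ctss, Lgmn and Lamp1, and 2 probes for Lamp2. Pregnant Wistar rats received potassium iodide (KI) at 1 mg/kg/day or 0.9% NaCl by gavage for 8 days from gestational day 9, and the thyroids of their male progeny were taken 51 days after birth. RNA of 6 animals of the KI-treated group and 7 animals of the control group was hybridised, 1 animal per 1-colour array. The litter of each animal is not given in the sources used here, so that the animals were treated as independent although some may share a mother.

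Thyroglobulin is the protein on which thyroid hormone is made, and it is stored outside the cell in the follicle lumen. Follicular cells take it back by endocytosis and deliver it to endosomes and lysosomes, where proteases cleave it and release thyroxine and triiodothyronine. A part of the internalised protein is carried across the cell by megalin, the product of Lrp2, and so escapes digestion.

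Each probe is a 60-base sequence, and its place along the transcript mattered for what follows. Sequences are shown for 5 of the 11 probes, written 5′ to 3′ in lower case with no part marked. Their positions are in the rat build rn4 as the array design gives them. The Ctsh probe lies at chr8:94986941-94989247 on the plus strand, the Lgmn probe at chr6:126669400-126669708 on the minus strand, the upstream Lamp2 probe at chrX:6931712-6938320 on the plus strand, the Ctss probe at chr2:190466474-190466533 on the plus strand and the Asgr1 probe at chr10:56902589-56902782 on the plus strand. Those of Ctsh, Lgmn, Lamp2 and Asgr1 extend over 2307, 309, 6609 and 194 bases of the genome and are therefore split by an intron, whereas the Ctss probe lies within 60 bases of it.
Ctsh: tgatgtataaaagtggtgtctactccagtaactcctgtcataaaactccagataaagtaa
Lgmn: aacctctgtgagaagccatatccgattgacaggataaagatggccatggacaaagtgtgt
Lamp2 upstream: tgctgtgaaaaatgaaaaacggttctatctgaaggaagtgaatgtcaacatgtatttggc
Ctss: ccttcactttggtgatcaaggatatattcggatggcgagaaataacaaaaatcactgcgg
Asgr1: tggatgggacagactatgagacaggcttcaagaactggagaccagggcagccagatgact

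All 11 probes were well above background on all 13 arrays, and no spot of any array was saturated. Values are log2 signal minus the 75th percentile of log2 signal on the same array, so 0 stands for the 75th percentile and levels of different probes are not compared. Of 58717 gene spots on each array, 34840 to 41050 were well above background. The Ctsd probe was printed 10 times per array, and the SD of these spots was between 0.03 and 0.07 on the log2 scale, against an SD between animals of 0.13 in the KI-treated group and 0.44 in the control group. Of 16 follicular genes fixed as a check of the tissue, 15 were tested, and these 15 were above background on every array. The remaining gene, Slc26a4, was above background on 0 arrays and so was not tested, since a test required 6. Markers of other cell types were also measured, among them 4 C cell genes above background on all arrays and 6 of 7 tested skeletal muscle genes.

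Controls 4 and 6 stood apart from the other arrays before any comparison of groups. Over 951 other transcripts with 2 probes at least 500 bases apart, the median of the upstream minus the downstream probe, relative to the mean of the transcript, was -0.58 in control 4, -0.33 in control 6, -0.09 in control 7 and between 0.04 and 0.16 in the other 10 arrays. Controls 4 and 6 were hybridised on different slides and scanned in the same session as KI-treated animals 2 and 3, which had 0.04 and 0.05. Lamp2 showed the same within 1 gene. Its upstream probe, at base 968 of the transcript, minus its downstream probe, at base 1634, was -4.14 in control 4 and -4.49 in control 6, and between -3.38 and -2.65 in the other 11 arrays. The group differences of the members are therefore given with and without these 2 animals, a choice made after seeing the data. The part of RNA quality or labelling in this difference was not tested.

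**Figure D1:**
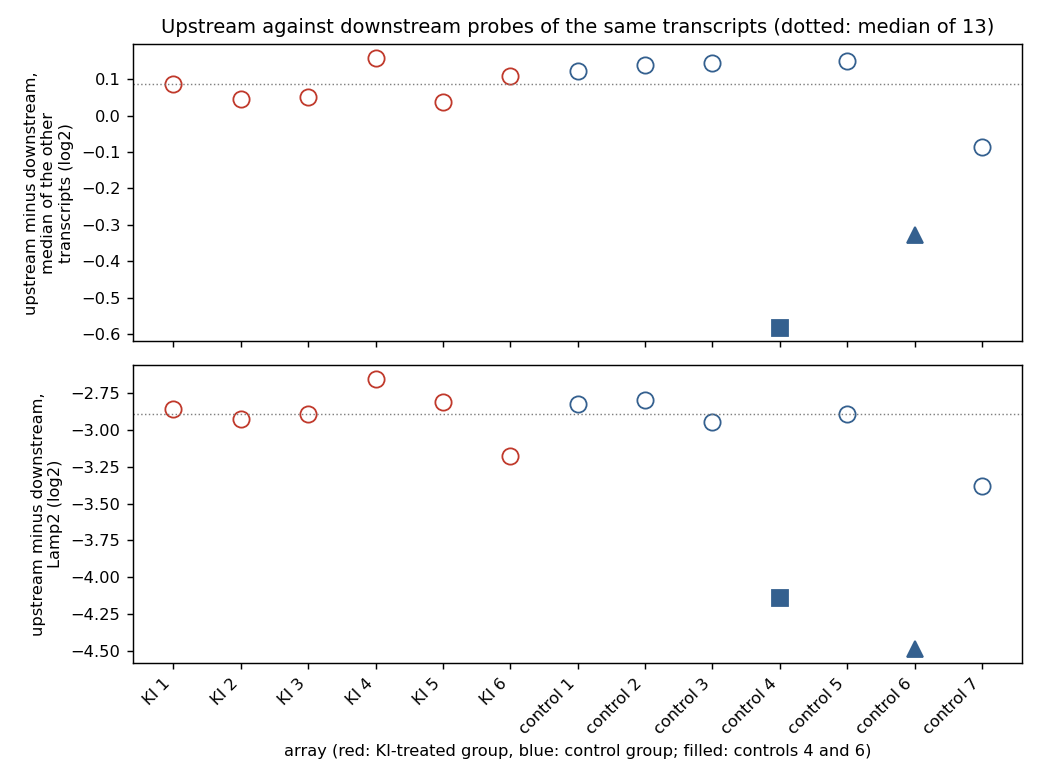
Upstream minus downstream probe of the same transcript in each of the 13 arrays (log2 difference), as the median of 951 transcripts in the upper panel and for Lamp2 in the lower panel; red, KI-treated group; blue, control group; dotted line, median of the 13 arrays. Controls 4 (filled square) and 6 (filled triangle) lie below all other arrays in both panels, at -0.58 and -0.33 above and at -4.14 and -4.49 below.

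No member probe differed with KI treatment after adjustment, and 2 differed before it. With limma and Benjamini-Hochberg adjustment over 25713 tested probes, 0 of 11 member probes and 0% of all probes passed 0.05, with adjusted p of the members between 0.353 and 0.965. At an unadjusted p under 0.05, 2 members passed, Lgmn and Ctsh, against 12.7% of all probes. The 2 were both higher in the KI-treated group, as were 5.71% of all probes, while none of the members and 7.01% of all probes were lower. With 11 probes, 2 is close to the share over the array and is no result about the members as a set. Of the 11 differences, 4 were positive and 7 negative (5 and 6 under each of 5 other scalings, in which Lamp1 turned positive), with a median of -0.22 against -0.08 over all probes. Without controls 4 and 6 the split was 6 positive and 5 negative, with a median of 0.01 against -0.01 over all probes, so the lower median of the members rested on these 2 animals. Lgmn and Ctsh again passed before adjustment, against 9.38% of all probes (3.46% higher, 5.92% lower). With the position measure as a covariate 3 members passed, Lgmn and Ctsh higher and Asgr1 lower, against 10.1% of all probes (4.25% higher, 5.8% lower). The 2 groups overlapped in all 11 probes. In whole thyroid, fewer cells of a type and less RNA per cell cannot be told apart.

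**Figure D2:**
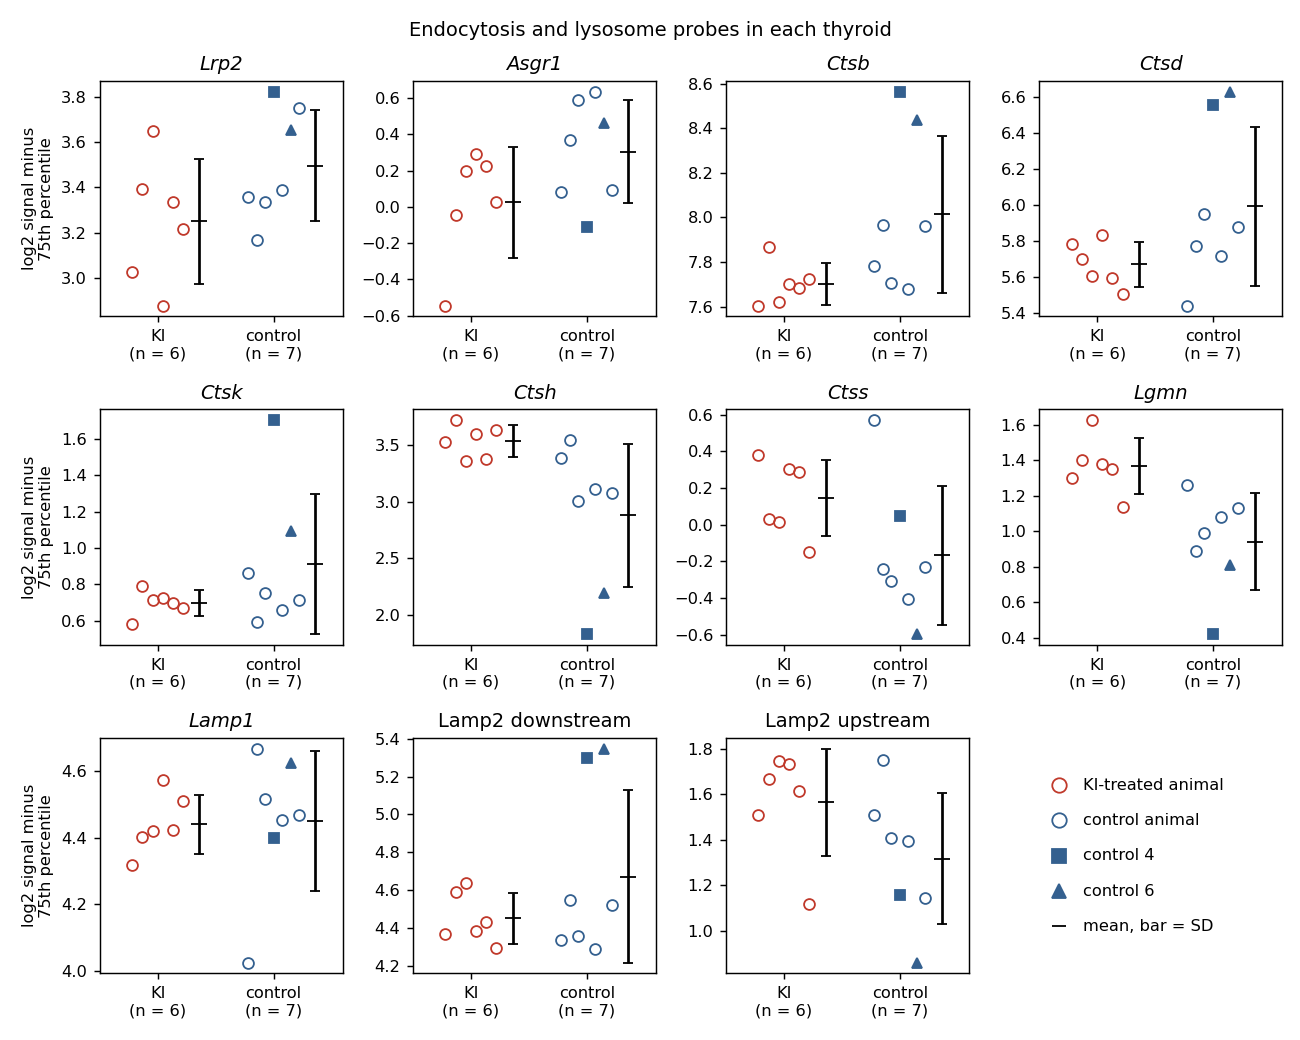
Log2 signal minus the 75th percentile of the array for each of the 11 probes in 6 KI-treated (red) and 7 control (blue) thyroids; the black mark and bar give mean and SD. Controls 4 (filled square) and 6 (filled triangle) are the highest 2 animals for Ctsb, Ctsd, Ctsk and the downstream Lamp2 probe, and the lowest 2 for Ctsh and Lgmn.

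Lrp2 encodes megalin, a large apical receptor of the LDL receptor family that binds thyroglobulin. Its values ran from 2.88 through a median of 3.28 to 3.65 in the KI-treated group and from 3.17 through 3.39 to 3.82 in the control group. Of the 7 controls, 4 lay inside the KI-treated range and 3 lay above it. The means were 3.25 ± 0.28 (SD, n = 6) and 3.50 ± 0.25 (SD, n = 7), a difference of -0.25 with a standard error of 0.15 (limma, adjusted p = 0.449), and -0.15 without controls 4 and 6. Its probe lies farthest from the transcript start of all members, at base 15334. Its level followed the position measure across the 13 animals with r = -0.68 (permutation p = 0.00128, adjusted over the 11 probes 0.0141). Spearman's rho was -0.71 (permutation p = 0.00518). Without controls 4 and 6 r was -0.77 over 11 animals.

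Asgr1 encodes a subunit of the asialoglycoprotein receptor, a lectin that binds glycoproteins with exposed galactose. It ran from -0.55 through 0.11 to 0.29 in the KI-treated group and from -0.11 through 0.37 to 0.64 in the control group. No KI-treated animal exceeded the control median, and 4 of 7 controls lay above the KI-treated range. The difference was -0.28 ± 0.16 (standard error; limma, adjusted p = 0.443). It was the only probe whose difference became more negative without controls 4 and 6, at -0.33 (unadjusted p = 0.0698, adjusted p = 0.569). With the position measure as a covariate it was -0.36 (unadjusted p = 0.0429, adjusted p = 0.482). The lowest KI-treated value was that of animal 1, and without it the difference was -0.17 (unadjusted p = 0.288).

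Cathepsins B, D and K are endopeptidases of the endolysosome, B and K with a cysteine and D with an aspartate at the active site. For Ctsb, the KI-treated animals ran from 7.60 through 7.69 to 7.87 and the controls from 7.68 through 7.96 to 8.56. The difference was -0.31 ± 0.15 (standard error), with an unadjusted p of 0.0576 and an adjusted p of 0.401 in limma. Across 27 fits its unadjusted p was under 0.05 in 6, and its adjusted p was 0.175 at lowest. Controls 4 and 6 read 8.56 and 8.44, and the other 5 controls averaged 7.82 ± 0.14 (SD, n = 5), which left a difference of -0.12.

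For Ctsd, the KI-treated animals ran from 5.51 through 5.65 to 5.84 and the controls from 5.44 through 5.88 to 6.63. The difference of -0.32 ± 0.18 (limma, adjusted p = 0.433) became -0.08 without controls 4 and 6, which had 6.56 and 6.63. Ctsk ran from 0.58 through 0.70 to 0.79 in the KI-treated group and from 0.59 through 0.75 to 1.70 in the control group, with 1.70 in control 4 and 1.10 in control 6. Its difference of -0.22 ± 0.16 (limma, adjusted p = 0.513) became -0.02. In these 3 genes the SD was 0.07 to 0.13 in the KI-treated group, 0.35 to 0.44 in the control group and 0.10 to 0.20 in the 5 controls other than 4 and 6.

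Legumain, the asparaginyl endopeptidase encoded by Lgmn, had the smallest unadjusted p among the members. Its values ran from 1.14 through 1.37 to 1.62 in the KI-treated group and from 0.42 through 0.99 to 1.26 in the control group. All 6 KI-treated animals lay above the control median, 6 of 7 controls lay below the KI-treated range, and control 1 alone fell inside it. The means were 1.37 ± 0.16 (SD, n = 6) and 0.94 ± 0.27 (SD, n = 7), a difference of 0.43 with a standard error of 0.14 (limma, unadjusted p = 0.00719, adjusted p = 0.353). An exact 2-sided permutation test over the animals gave p = 0.00291, where 0.000583 is the smallest this design allows. Control 4 was the lowest at 0.42, and without controls 4 and 6 the difference was 0.30 ± 0.10 (unadjusted p = 0.0130, adjusted p = 0.445). Within the 3 scan sessions the KI-treated mean exceeded the control mean by 0.90, 0.19 and 0.31. The third session, with 0.31, held 1 KI-treated animal against 3 controls. In the first session, with 0.90, the only controls were 4 and 6. Without them, KI-treated animals 2 and 3 had no control of their own session.

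Cathepsin H, the product of Ctsh, is mainly an aminopeptidase and had the largest difference of the members. It ran from 3.36 through 3.56 to 3.72 in the KI-treated group and from 1.83 through 3.08 to 3.54 in the control group. All 6 KI-treated animals lay above the control median, and 5 of 7 controls lay below the KI-treated range. The difference was 0.66 ± 0.24 (standard error; limma, unadjusted p = 0.0169, adjusted p = 0.359), and the exact 2-sided permutation test gave p = 0.0146. Controls 4 and 6 had 1.83 and 2.19 against 3.23 ± 0.23 (SD, n = 5) in the other controls, and without them the difference was 0.31 ± 0.12 (unadjusted p = 0.0206, adjusted p = 0.465). Within the scan sessions the difference was 1.53, 0.05 and 0.53, and the value of 0.05 came from the session that held controls 1 and 2. The value of 1.53 came from the session whose only controls were 4 and 6. The value of 0.53 came from the session with 1 KI-treated animal and 3 controls. Across all 27 fits, Ctsh and Lgmn kept an unadjusted p of at most 0.0360 and 0.0206, and in none did the adjusted p fall under 0.147 and 0.151.

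Cathepsin S, the product of Ctss, is a cysteine protease best known from cells that present antigen. It ran from -0.15 through 0.16 to 0.38 in the KI-treated group and from -0.60 through -0.24 to 0.57 in the control group. All 6 KI-treated animals lay above the control median, but control 1 had the highest value of all 13. The difference was 0.31 ± 0.17 (standard error; limma, unadjusted p = 0.0898, adjusted p = 0.425), and 0.27 ± 0.17 without controls 4 and 6. Within the scan sessions it was 0.30, 0.01 and 0.62. The 0.30 was against controls 4 and 6 alone, and the 0.62 came from 1 KI-treated animal against 3 controls.

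LAMP-1 and LAMP-2 are the main glycoproteins of the lysosomal membrane. Lamp1 ran from 4.32 through 4.42 to 4.57 in the KI-treated group and from 4.02 through 4.47 to 4.67 in the control group. Its difference was -0.01 ± 0.11 (limma, adjusted p = 0.965), and it was positive in 11 of 26 alternatives, among them quantile normalization at 0.13 and the deposited log2 values at 0.15. The 2 probes of Lamp2 differed in opposite directions, by -0.22 ± 0.19 for the downstream probe (adjusted p = 0.551) and by 0.25 ± 0.15 for the upstream probe (adjusted p = 0.454). The downstream probe ran from 4.29 to 4.64 in the KI-treated group and from 4.29 to 5.35 in the control group, with 5.30 and 5.35 in controls 4 and 6. The upstream probe ran from 1.12 to 1.75 and from 0.86 to 1.75, with 1.16 and 0.86 in controls 4 and 6. Without these animals the differences were 0.04 and 0.12. The upstream minus downstream value itself was -2.89 ± 0.17 (SD, n = 6) and -3.35 ± 0.69 (SD, n = 7), an exact 2-sided permutation p of 0.163, and the 5 controls other than 4 and 6 had -2.97 ± 0.24 (SD, n = 5).

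**Figure D3:**
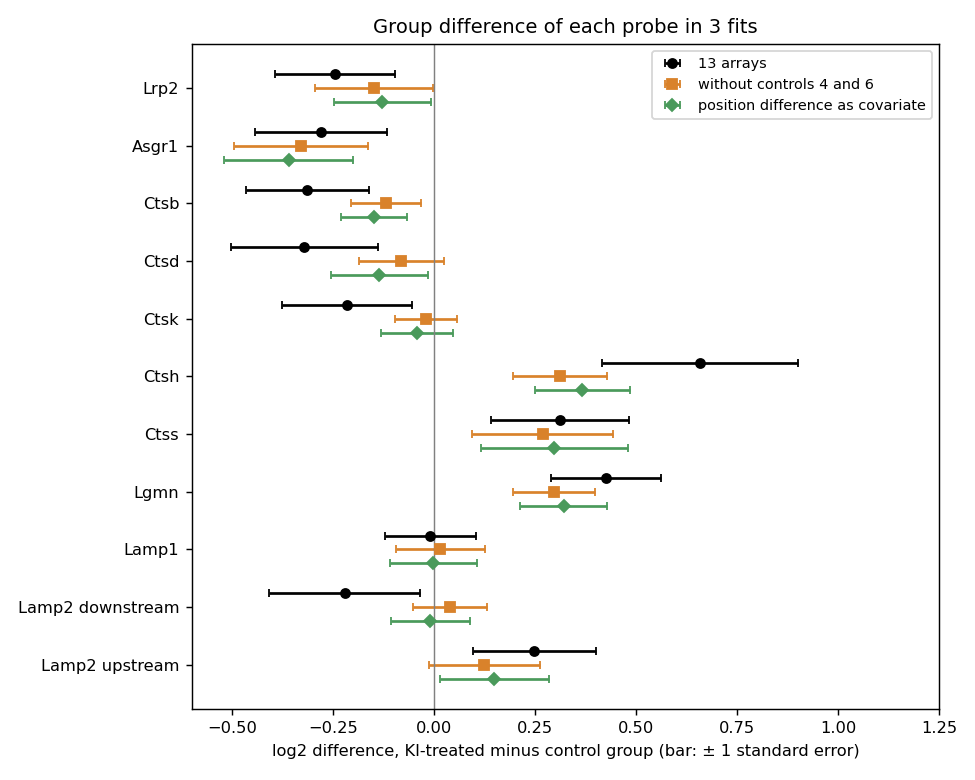
Log2 difference, KI-treated minus control group, for each of the 11 probes, with bars of 1 standard error, in the fit over 13 arrays (black), without controls 4 and 6 (orange) and with the position measure as a covariate (green). The differences of Ctsb, Ctsd, Ctsk and the downstream Lamp2 probe move close to 0 without the 2 controls, Ctsh and Lgmn move to 0.31 and 0.30, and Asgr1 moves to -0.33.

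Over the array as a whole, the direction in which controls 4 and 6 departed went with features of the probes, though not for every member. Over all tested probes, the mean of these 2 animals minus that of the other controls had a median of 0.12. It was 0.50 over the 2805 probes that hold the letters AATAAA, searched on the probe strand only and found in 10.9% of tested probes, and -0.30 over the 2600 probes that extend over more than 60 bases of the genome, 10.1% of those tested. The Ctsd and Ctsk probes are among the former, and those of Ctsh, Lgmn, Asgr1 and the upstream Lamp2 probe among the latter. The Ctsb and downstream Lamp2 probes have neither feature. Asgr1 lay 0.47 below the mean of the other controls in control 4 and 0.11 above it in control 6. Control 4 exceeded the mean of the other controls by 0.75 for Ctsb, 0.81 for Ctsd, 0.99 for Ctsk and 0.89 for the downstream Lamp2 probe. It lay 1.40 below that mean for Ctsh. In control 6 the same differences were 0.62, 0.88, 0.38, 0.94 and -1.03. Across the 13 animals, the correlation with the position measure was -0.92 for Ctsb, -0.91 for the downstream Lamp2 probe, -0.90 for Ctsk and -0.82 for Ctsd, and 0.92 for Ctsh (rho -0.76, -0.87, -0.79, -0.63 and 0.76; permutation p of r adjusted over the 11 probes 0.0158, 0.0158, 0.0195, 0.0516 and 0.0158). Without controls 4 and 6 these were -0.46, -0.52, -0.10, -0.09 and 0.32. Lgmn had an r of 0.69 (permutation p = 0.0365, adjusted 0.0574) and a rho of 0.42 (permutation p = 0.202). Its r was -0.31 without controls 4 and 6. For Ctss and Lamp1 r was 0.07 and -0.07.

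Pairs of members were compared across animals after subtraction of the group means, with 1 probe per gene and the downstream probe for Lamp2. Of 45 pairs, 16 had a permutation p under 0.05 and 0 after Benjamini-Hochberg adjustment, by Pearson's r or by Spearman's rho. The highest correlations joined Ctsb and Lamp2 (r = 0.93, rho = 0.75, permutation p = 0.00227, adjusted 0.0890), Ctsd and Lamp2 (r = 0.88, rho = 0.78, permutation p = 0.0148, adjusted 0.0890) and Ctsb and Ctsd (r = 0.83, rho = 0.59, permutation p = 0.0239, adjusted 0.101). The lowest joined Ctsd and Ctsh (r = -0.87, rho = -0.78, permutation p = 0.0138, adjusted 0.0890), and the adjusted permutation p of rho was 0.121, 0.121, 0.233 and 0.121. In all 4 pairs the animals farthest from the median were controls 4 and 6, and without them r was 0.57, 0.18, 0.07 and -0.30. These relations therefore rested on those 2 animals, except that Ctsb and Lamp2 still had 0.57 over 11 animals.

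As a description, 12 of the 45 pairs had an absolute r of at least 0.7, or 26.7% against 10.7% of all pairs among the 25650 tested probes with a value on every array. Without controls 4 and 6 the count was 1, or 2.22% against 5.11%. That pair was Ctss and Lamp1, with r = -0.79 over 13 animals (permutation p = 0.0150, adjusted 0.0890, rho = -0.60) and -0.76 without controls 4 and 6. Without controls 1 and 6, the 2 animals farthest from the median of Ctss, it was -0.28. The median r over the 45 pairs was -0.12, and 0.00 without controls 4 and 6, so the members did not vary as 1 block between animals. The 2 probes of Lamp2 had r = -0.44 with each other over 13 animals (permutation p = 0.210, rho = -0.22) and 0.47 over the 11 other than controls 4 and 6.

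**Figure D4:**
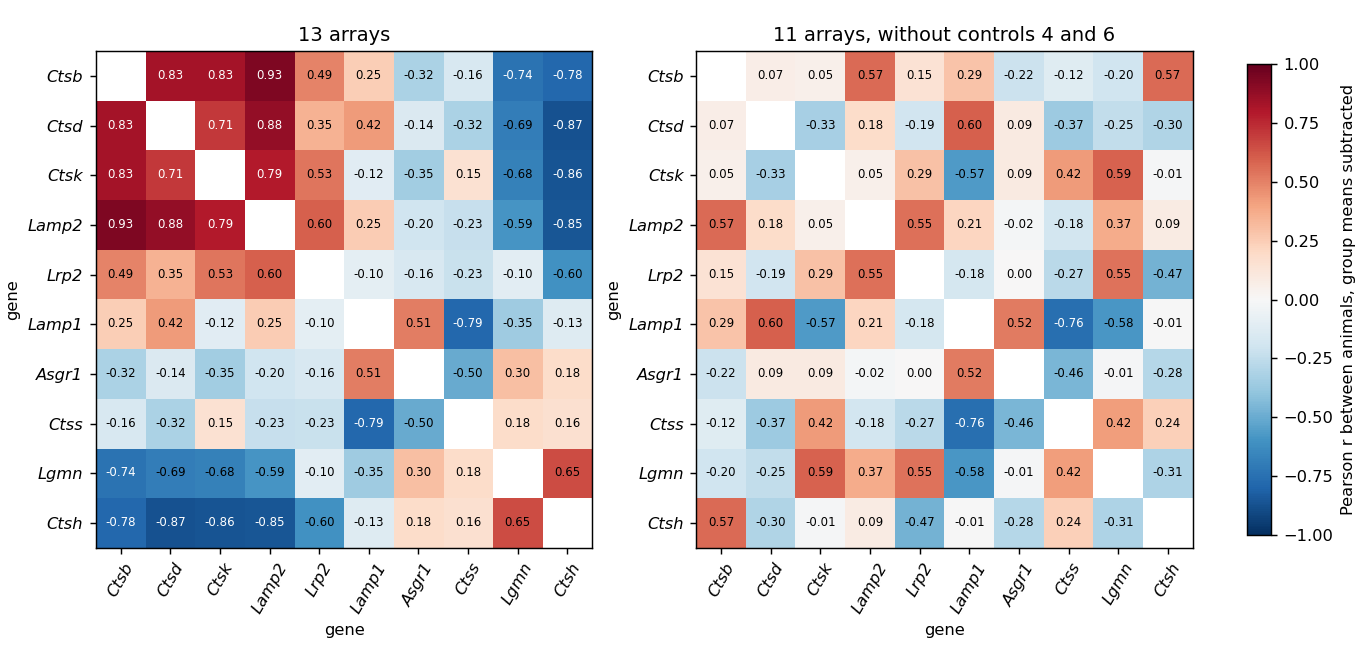
Pearson r between animals for each pair of the 10 genes, group means subtracted, over 13 arrays (left) and over 11 arrays without controls 4 and 6 (right). On the left, Ctsb, Ctsd, Ctsk and Lamp2 form a block of 0.71 to 0.93 and Ctsh has -0.78 to -0.87 with them. On the right that block is gone, and Ctss with Lamp1 at -0.76 is the pair farthest from 0.

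For each member, the genes whose level was most like it between animals were ranked among all named probes, as a description with no test since they were picked as the highest. For Ctss these were Cd163, a scavenger receptor of macrophages, with r = 0.94 (rho = 0.85), and C1qa, a subunit of complement C1q made by macrophages, with r = 0.90 (rho = 0.86), followed by Ankrd44 with r = 0.88. Without controls 4 and 6, r with Cd163 was 0.94 and with C1qa 0.88. Both genes are in the macrophage list, in which 10 of 12 tested genes had a positive r with Ctss, with a median of 0.42 and a range of -0.26 for Itgam to 0.94. C1qc and C1qb had 0.82 and 0.56, and Csf1r and Adgre1, further macrophage genes, had 0.36 and 0.46 (rho 0.00 and 0.46). Without controls 4 and 6, C1qc and C1qb had 0.80 each, Csf1r -0.17 and Adgre1 0.23, and 9 of the 12 were positive. The summed level of the macrophage list was 5.27 to 5.62 in the KI-treated group and 5.13 to 6.20 in the control group, with 5.75 in control 1, in which Ctss was highest at 0.57, and the highest sum, 6.20, in control 4, in which Ctss was 0.05. None of the 12 passed the adjusted threshold, and 1, Itgam, was lower in the KI-treated group before adjustment (-0.78, unadjusted p = 0.0174), where 7.01% of all probes were, and it was -0.73 without controls 4 and 6 (unadjusted p = 0.0504). The part of macrophage number in the level of Ctss was not tested.

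**Figure D5:**
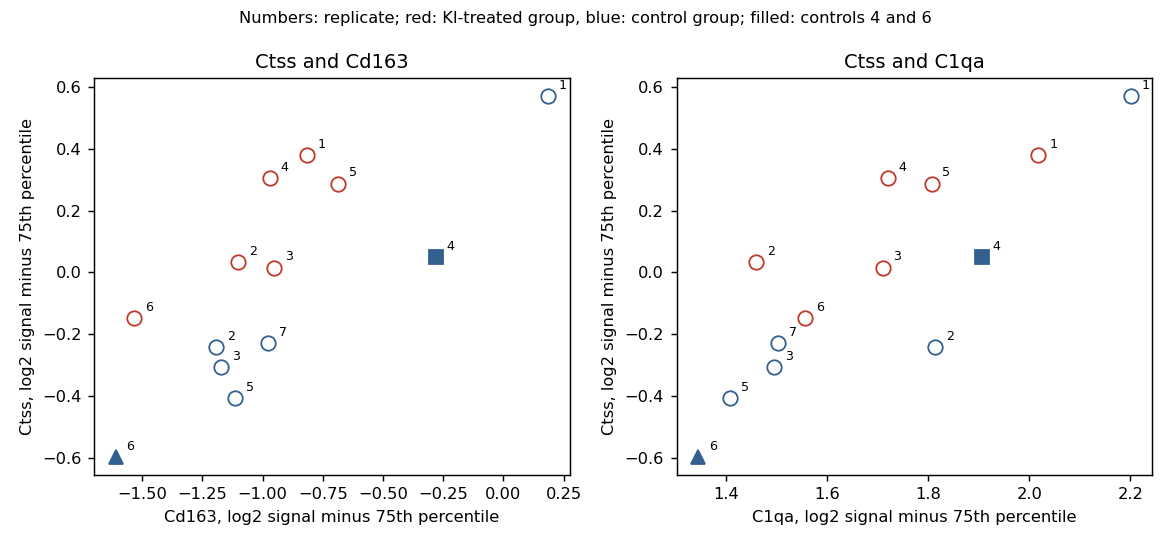
Ctss against Cd163 (left) and C1qa (right) in each thyroid, both axes as log2 signal minus the 75th percentile of the array; red, KI-treated group; blue, control group; the number is the replicate. Control 1 is highest on all 3 probes and control 6 lowest, and with group means subtracted r is 0.94 and 0.90 over 13 animals.

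Lrp2 was most like Igf1r, the receptor of insulin-like growth factor 1, with r = 0.97 and 0.97 without controls 4 and 6, and next Abr and Wrnip1 with 0.92 each. Lgmn was most like Hook3 (0.98 and 0.95 without these controls) and Ctsh most like Psmb7, a proteasome subunit (0.99 and 0.94), and Lamtor1, which anchors mTORC1 to the lysosome (0.98 and 0.92). Lamp2 was most like Psme1, Nnt and Fuca1, a lysosomal fucosidase, with 0.99, 0.98 and 0.98. Ctsb was most like Chpf, Asgr1 most like Tmem151a and Lamp1 most like Sowahc. Ctsk was most like Rhbdf1 with 0.97, which became 0.72 without controls 4 and 6.

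The other genes of the pathway were read from lists with 1 probe per gene, and 0 of their genes passed the adjusted threshold in limma. Among 25 tested lysosomal hydrolases, 6 were higher with KI treatment and 0 were lower at an unadjusted p under 0.05, where 5.71% and 7.01% of all probes were, and 5 and 0 without controls 4 and 6, where 3.46% and 5.92% were. The 6 over all animals were Gusb, β-glucuronidase, by 0.62 ± 0.21, Tpp1, tripeptidyl peptidase 1, by 0.43 ± 0.15, Pcyox1 by 0.68 ± 0.26, Neu1, a sialidase, by 0.44 ± 0.17, Dpp7 by 0.41 ± 0.16 and Hexa, a subunit of β-hexosaminidase, by 0.43 ± 0.19 (standard errors; adjusted p 0.354 to 0.388). All 6 were positive under each of 6 scalings. Their differences were smaller without controls 4 and 6, at 0.34, 0.27, 0.40, 0.24, 0.24 and 0.21 in the same order, and Pcyox1 (unadjusted p = 0.0627) and Dpp7 (unadjusted p = 0.0505) no longer passed. The fifth gene that passed there was Glb1, β-galactosidase, which differed by 0.22 without those controls and by -0.09 with them. Controls 4 and 6 were the lowest animals for each of the first 6, at -2.89 and -2.16 for Gusb against -1.77 to -1.13 in the other 11 animals. Over the whole list 12 differences were positive and 13 negative, with a median of -0.04 that was positive, up to 0.06, under 4 of the scalings.

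Among 21 tested genes of the lysosomal membrane and of acidification, 3 were higher and 0 lower before adjustment, against the same 5.71% and 7.01% of all probes. These were Atp6v1b2, a subunit of the vacuolar proton pump, by 0.55 ± 0.18, Atp6ap2, an accessory subunit, by 0.28 ± 0.11, and Laptm4a by 0.31 ± 0.15. Without controls 4 and 6 the differences were 0.30, 0.29 and 0.15, and 2 of the list passed, Atp6v1b2 and Atp6ap2, where 3.46% of all probes were higher. Among 16 tested endocytosis receptors and partners, Clu, a secreted ligand of megalin, was higher by 0.39 ± 0.16 (unadjusted p = 0.0292), 1 gene where 5.71% of all probes were higher, and without controls 4 and 6 it differed by 0.25 and none passed. Among 12 tested genes of lysosomal transcription and sensing, Mtor was higher by 0.71 ± 0.29 (unadjusted p = 0.0252), again 1 gene where 5.71% of all probes were higher. Without those controls it was higher by 0.48 and did not pass (unadjusted p = 0.0805). There 2 others of the list passed, where 3.46% of all probes were higher. These were Flcn, folliculin, at 0.36 and Rragd, a Rag GTPase, at 0.23, which had 0.11 each over all animals. Of the 6 other cathepsins tested (Ctsa, Ctsc, Ctse, Ctsf, Ctsl and Ctsz) and the 3 inhibitors of cysteine proteases (Cst3, Cstb and Cst6), none passed before adjustment. Ctsl, a further cysteine endopeptidase, differed by -0.13 ± 0.20, by 0.13 without controls 4 and 6 and by up to 0.04 under other scalings, with 6.38 and 6.25 in controls 4 and 6 against 5.25 to 5.75 in the other animals.

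The substrate and other follicular genes were measured alongside. Tg, thyroglobulin itself, differed by -0.26 ± 0.12 (limma, unadjusted p = 0.0476, adjusted p = 0.390) and by -0.14 without controls 4 and 6, and its sign turned under other scalings, up to 0.07. Dio1, a deiodinase, differed by 0.47 ± 0.22 (adjusted p = 0.391) and by 0.29 without controls 4 and 6 (unadjusted p = 0.141). Of 7 tested skeletal muscle genes, all 7 had lower means in the KI-treated group and 2, Actn3 and Pvalb, passed before adjustment, where 7.01% of all probes were lower. They differed by -1.73 and -2.20, and by -1.76 and -2.17 without controls 4 and 6, and the muscle list had a summed level of 1.16 to 5.33 in the KI-treated group and 4.02 to 7.08 in the control group. Among markers of other cell types, Gcm2 of the parathyroid was higher with KI treatment by 1.09 (1.05 without controls 4 and 6), Chga of C cells by 0.58 (0.70), Hbb of red blood cells by 0.57 (0.47) and Tie1 of endothelium by 0.39 (0.17), and Adipoq of adipocytes had a difference of -0.44 (-0.40). Each had an unadjusted p under 0.05 over all animals, where 5.71% of all probes were higher and 7.01% lower. Without controls 4 and 6, Gcm2, Chga and Hbb still passed, where 3.46% of all probes were higher. Tie1 and Adipoq did not (limma, unadjusted p = 0.0706 and 0.0714). The summed levels of these lists overlapped between the groups, at 8.41 to 8.84 and 8.63 to 9.38 for parathyroid, 7.35 to 8.08 and 6.68 to 8.05 for C cells, 7.64 to 8.28 and 7.72 to 8.91 for blood, 6.46 to 6.86 and 6.34 to 7.29 for endothelium and 5.78 to 7.25 and 6.12 to 7.20 for adipocytes. By single genes, 2 of 3 parathyroid, 2 of 4 C cell, 3 of 4 blood and 1 of 6 endothelial genes had higher means with KI treatment. Of 6 adipocyte genes, 4 had lower means and 2 higher. Pth, Ret and Hba1 differed by -0.24, -0.40 and -0.19, opposite in sign to Gcm2, Chga and Hbb. The part of these cell types in the differences of Lgmn and Ctsh was not tested.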

How the data were processed

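Total RNA was labelled with Cy3 and hybridised by the authors to Agilent 8x60K rat arrays, which were read with Feature Extraction 10.7.3.1. The deposited files hold spot intensity, with background subtracted by that program, and the authors' table holds normalized log2 values whose centring is not given in the sources used here. Its column medians lay between 6.83 and 6.95, and it was used as an alternative. Starting from the processed intensity, log2 values of spots of 1 probe were averaged after removal of outlier spots, and the 75th percentile over probes was subtracted per array. A probe was tested if it was well above background on 6 or more of the 13 arrays (25713, of which 63 lacked a value on some array). Groups were compared with limma 3.58.1 in R 4.3.3 (lmFit, eBayes, Benjamini-Hochberg), after a check on simulated data, while permutation tests used Python 3.11.15 (numpy 2.4.6, scipy 1.17.1, pandas 2.3.3). Exact tests took all 1716 splits of the animals, and correlation tests 100000 permutations within groups. The number of arrays limits the precision.

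The 13 arrays lay on 6 slides in 3 scan sessions. The members and the gene lists were chosen with earlier results of these data known. Named genes are the members, the 3 genes most like each, and from each list those with the smallest p in each direction, of which a part is printed and some are not reported here. Other genes named, as examples within a list, were chosen after their values were seen. The sequences and rn4 positions come from the array's own annotation in the deposited files. Alternatives covered background correction, scaling, filter, slide, scan session, array weights, the replicate number and each animal left out. Promoters and proteins were not used here.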

Additional observations from a re-analysis of the deposited data

Results flagged for a closer look

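Lamp1 in control 1 was 4.02, far below the next lowest control, with a gap of 0.58 of the range of the control group. It was the only such value among 22 combinations of probe and group, where chance gives about 1 in 20. The same animal had the highest Ctss value of the 13.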

How the results depend on the processing

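No member probe passed the adjusted threshold under any alternative, the lowest adjusted p being 0.147. Of 286 recomputed differences of single probes, 274 kept their direction and side of the threshold, and those of Ctsh and Lgmn kept their direction and an unadjusted p under 0.05 in all 27 fits. Over all probes, array weights, which gave controls 4 and 6 the lowest weights, called 50 probes after adjustment, 2 of them higher, and leaving out 1 animal gave 0 to 1. The methods' t-test called 0 after adjustment and 3134 before it. Unadjusted, 3271 probes passed in limma (1469 higher, 1802 lower), with 5120 under scan session as a block and 2355 under the replicate block. The split was 1825 and 1455 with quantile normalization, 1790 and 1109 with the percentile over spots, 1886 and 1359 on the deposited values, 1904 and 1422 with normexp and quantile normalization, and 1166 and 3426 with normexp and the percentile. Members at an unadjusted p under 0.05 numbered 2 in the limma fit given above. They numbered 3 with normexp and the percentile, with slide as a block and with the position measure as a covariate. They numbered 4 with scan session as a block and with array weights, and 2 to 5 when 1 animal was left out, with 5 without control 1. Of all 25713 probes, 3985 passed before adjustment with slide as a block, 4377 with array weights and 4599 without control 1, against the 3271 given above. The difference of Lamp1 was reversed, at 0.13 (quantile), 0.14 (normexp with quantile), 0.0419 (normexp with percentile), 0.15 (deposited values), 0.0181 (scan session), 0.0695 (percentile over spots) and 0.0149 (without controls 4 and 6), and it ran from -0.0806 to 0.0264 when 1 animal was left out, positive without KI-treated animal 1 or control 2, 3 or 6. That of the downstream Lamp2 probe was reversed without controls 4 and 6, at 0.0396. The cause was not tested. The median r of the 45 pairs was 0.0277 with slide means subtracted, against -0.12. The median r ranged from -0.13 to -0.01 when 1 animal was left out, and the median difference from -0.24 to -0.08.

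The replicate numbers did not pair the animals: the correlation of same-numbered arrays ran from -0.11 to 0.07. The replicate block called 0 probes after adjustment, and 2 members before it, and it reversed no member.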
